A study of Rattus norvegicus with 14 samples.

Results

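The genes described here are 9 genes of white fat cells, chosen by name: Adipoq, Lep, Retn, Cfd, Fabp4, Pparg, Lpl, Gpd1 and Pck1. A probe set was taken for a gene where the platform annotation gave it that single symbol, and where a gene had more than 1, the brightest on average over the 14 arrays stood for it. This found 9 probe sets for 8 of the 9 genes, out of 14217 named genes and 31042 tested probe sets. Retn, which encodes resistin, had no such probe set and was not analysed here. Thoracic aortas of Sprague-Dawley rats were measured on 8 arrays from rats with chronic renal failure induced by adenine (A-CRF) and on 6 arrays from Control rats, 1 array per sample. The labels used here give neither age, sex, dose nor duration, and they do not state whether samples came from different rats. The p-values therefore rest on sample-to-sample spread, part of which may be technical. They do not say either how much of the surrounding tissue was left on the vessel.

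White adipocytes store triglyceride and release it as fatty acids, and they secrete adipokines such as adiponectin (Adipoq), leptin (Lep) and the complement protease adipsin (Cfd). The nuclear receptor PPAR gamma (Pparg) switches on much of this programme, including the fatty acid carrier Fabp4, lipoprotein lipase (Lpl), which frees fatty acids from circulating lipoproteins, and Pck1, which feeds glyceroneogenesis in fat. Gpd1 makes the glycerol phosphate on which triglyceride is built. The fat that surrounds the thoracic aorta of rodents also has features of brown fat, the tissue that burns fatty acids for heat through the uncoupling protein Ucp1.

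The values are log2 probe set summaries, and the lowest in the table was 4.82. Of the 8 measured genes, 7 had a mean more than 1 log2 unit above that, over a bound of 5.82, and Lep did not. All 8 smooth muscle markers had a mean above the bound, with 1 of 8 lower in A-CRF and a list mean of 9.28 to 9.77 in A-CRF against 9.54 to 10.17 in Control. Above the bound were also 11 of 11 macrophage markers, against 0 of 5 mesothelium markers and 1 of 5 lymphocyte markers. Macrophage markers differed between the groups, with 9 of 11 higher in A-CRF and a list mean of 7.24 to 7.65 in A-CRF against 6.85 to 7.02 in Control, and their part in the results below was not tested. A-CRF 1, A-CRF 4 and Control 1 had a GAPDH 3' minus 5' difference, a measure of transcript shortening, of 1.90, 1.63 and 1.58 log2 units. It lay between 0.37 and 0.55 on the 11 other arrays. In bulk tissue a lower value may come from fewer fat cells or from less RNA per fat cell, and these cannot be told apart here.

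None of the 8 genes passed an adjusted p of 0.05 between A-CRF and Control (limma, two-sided, adjusted over all 31042 probe sets), whereas 2.05% of all tested probe sets did, 1.26% higher and 0.789% lower in A-CRF. The groups did not overlap for 0 of the 8 genes and for 1.38% of tested probe sets. By the unadjusted p of the same limma fit 1 of the 8, Gpd1, was under 0.05. The share of all tested probe sets under that unadjusted limit was not computed, so this count has no background. An exact rank-sum test adjusted in the same way called 0 of the 8, and 429 of all 31042 probe sets. The median difference over the 8 genes was -0.22 log2 units, with 6 negative and 2 positive, against a median of -0.0020 over all tested probe sets. The values spread widely between arrays of the same group. The SD within groups, pooled over both, had a median of 0.615 log2 units over the 8 genes, against 0.056 over all tested probe sets and 0.102 over the 12728 with a mean above the bound. An SD over 0.5 log2 units was found for 0.332% of all tested probe sets and for 0.809% of those with a mean above the bound. Of the 8 genes 6 had such an SD: Adipoq (0.58), Cfd (0.57), Fabp4 (0.65), Lpl (0.69), Gpd1 (0.84) and Pck1 (1.08). Pparg had 0.29 and Lep 0.04.

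**Figure D1:**
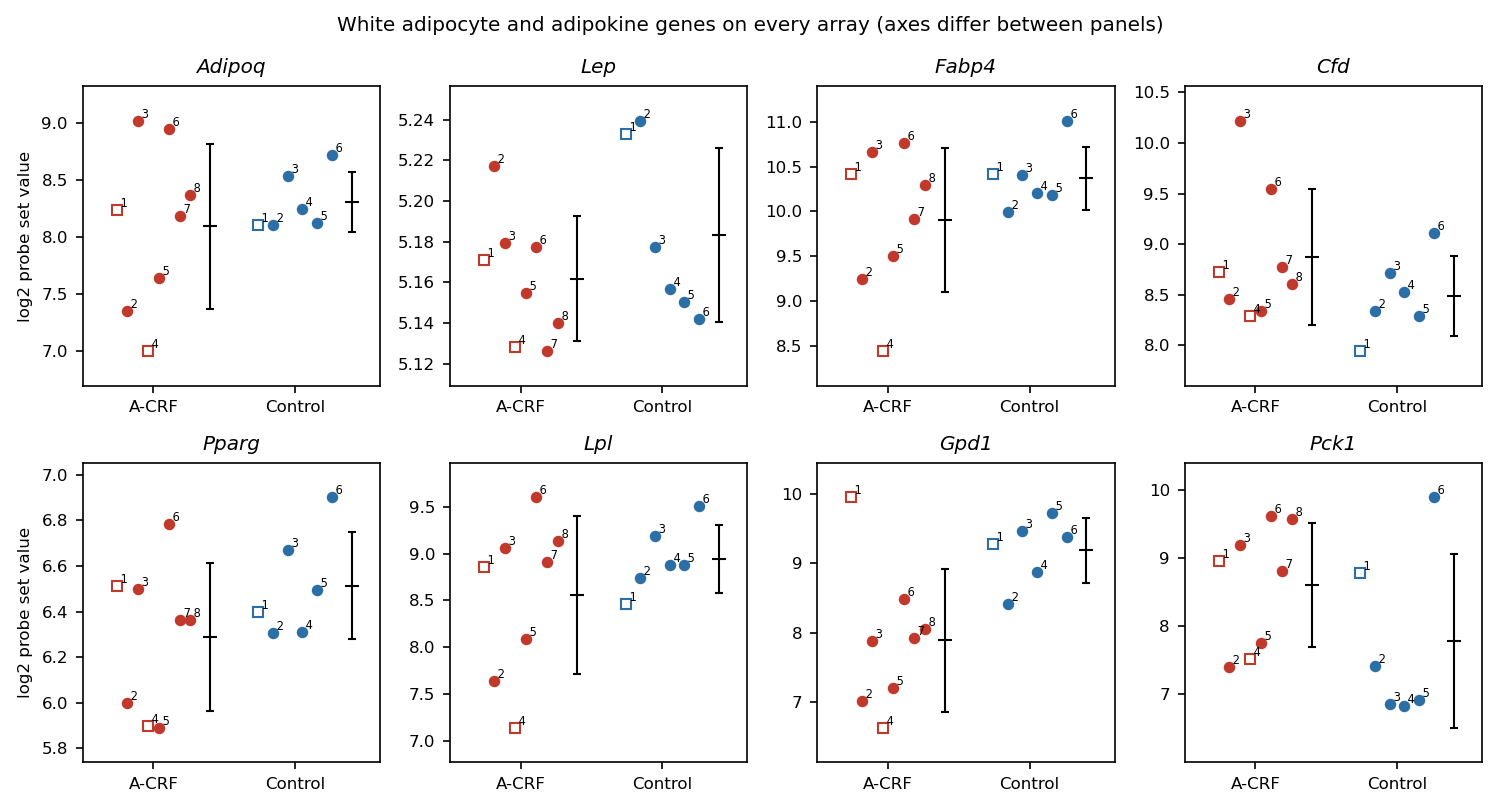
Log2 probe set values (y axis, a separate scale in each panel) of the 8 measured genes on the 8 A-CRF arrays (red) and the 6 Control arrays (blue), with the array number beside each point, open squares for the 3 arrays of high GAPDH difference, and mean ± SD at the right of each group. A-CRF 2, 4 and 5 are the lowest 3 A-CRF points in every panel except that of Lep.

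Among the secreted products, adiponectin is the hormone most specific to fat cells. Adipoq had 6.996 as the lowest, 8.21 as the median and 9.02 as the highest value in A-CRF, against 8.10, 8.18 and 8.71 in Control. A-CRF 2, 4 and 5 lay below every Control array, A-CRF 3 and 6 above every Control array, and the other 3 within the Control range. A-CRF averaged 8.09 ± 0.72 (SD of 8 arrays) and Control 8.30 ± 0.26 (SD of 6 arrays). The difference was -0.21 ± 0.29 log2 units (SE, limma adjusted p = 0.85), with a 95% interval of -0.83 to 0.41.

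Cfd encodes adipsin, which activates the alternative complement pathway and is abundant in fat. Its lowest, median and highest values were 8.29, 8.67 and 10.22 in A-CRF, against 7.94, 8.43 and 9.11 in Control. The A-CRF values above the Control range came from A-CRF 3 (10.22) and A-CRF 6 (9.54), and no A-CRF array lay below the Control range. The difference was 0.38 ± 0.29 (SE, adjusted p = 0.64, 95% interval -0.23 to 0.9995), positive where that of Adipoq was negative. The 2 genes deviated from their group means together (r = 0.85 over the 14 arrays, given as a description). Adipoq had a higher r with Fabp4 (0.95), Lpl (0.95) and Pparg (0.88), and Cfd had 0.47 with Pck1 and 0.28 with Gpd1.

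Lep, the hormone that signals fat stores to the brain, was near the lowest value of the table on every array, at 5.13, 5.16 and 5.22 (lowest, median and highest) in A-CRF, against 5.14, 5.17 and 5.24 in Control. The difference was -0.02 ± 0.02 (SE, adjusted p = 0.75). Its deviations had an r of -0.09 with the mean of the other 7 genes. A difference in leptin mRNA was not detectable at this signal.

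The promoter windows of Adipoq and Cfd, whose deviations went together, and of Pck1, which stood at 2 levels among the Control arrays, are shown as RefSeq has them in GRCr8, from 250 bases before to 50 bases after the start, 5' to 3' on the gene's own strand. They are chr11:91240120-91240419 (minus strand) for Adipoq, chr7:10465447-10465746 (minus strand) for Cfd and chr3:182348322-182348621 (plus strand) for Pck1. Capitals mark matches, on either strand, to any of 7 motifs. These were the cyclic AMP response element as TTACGTCA or as TGACGTCA, the C/EBP palindrome TTGCGCAA, the nuclear receptor site AGGTCA, its direct repeat with 1 base between the copies (the PPAR and RXR element, whose copies also match the single site), the TATA box as TATAAA and the CCAAT box as CCAAT.
Adipoq: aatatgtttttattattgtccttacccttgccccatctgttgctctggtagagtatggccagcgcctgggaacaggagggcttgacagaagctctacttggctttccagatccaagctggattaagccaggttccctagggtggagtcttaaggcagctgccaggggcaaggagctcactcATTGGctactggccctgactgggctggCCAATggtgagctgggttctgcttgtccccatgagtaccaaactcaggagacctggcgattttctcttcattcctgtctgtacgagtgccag
Cfd: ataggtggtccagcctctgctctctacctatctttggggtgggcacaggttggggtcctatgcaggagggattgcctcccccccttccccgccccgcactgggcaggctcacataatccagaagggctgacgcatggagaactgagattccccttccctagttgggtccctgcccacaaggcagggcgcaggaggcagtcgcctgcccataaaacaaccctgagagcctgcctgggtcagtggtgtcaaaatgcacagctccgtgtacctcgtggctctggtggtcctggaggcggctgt
Pck1: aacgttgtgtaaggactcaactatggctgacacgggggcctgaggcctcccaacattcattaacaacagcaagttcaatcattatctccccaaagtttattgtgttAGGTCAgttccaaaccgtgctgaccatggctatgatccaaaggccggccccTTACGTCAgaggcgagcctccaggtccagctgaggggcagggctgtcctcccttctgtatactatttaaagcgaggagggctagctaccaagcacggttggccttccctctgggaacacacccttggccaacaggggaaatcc

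The Adipoq window held CCAAT at -69 to -65, on the reverse strand, and at -42 to -38, and 37.5% of all 33469 promoter windows held this motif. In the Pck1 window TTACGTCA stood at -93 to -86, a motif found in 0.807% of windows, and AGGTCA at -144 to -139, found in 16.2%. The Cfd window held none of the 7 motifs. Of the 9 genes, 6 had a window in the table, and the direct repeat was in none of these and in 0.0538% of all windows. A match is a run of letters and was not tested as a binding site.

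Fabp4 and Lpl handle the fatty acids that enter the fat cell. For Fabp4, the fatty acid carrier of adipocytes, the values were 8.44, 10.11 and 10.77 (lowest, median and highest) in A-CRF, against 9.996, 10.31 and 11.02 in Control. A-CRF 2, 4, 5 and 7 lay below every Control array and none above. The difference was -0.47 ± 0.33 (SE, adjusted p = 0.60). Lpl had 7.14, 8.88 and 9.61 in A-CRF, against 8.46, 8.88 and 9.52 in Control, so the medians were alike while A-CRF 2, 4 and 5 lay below the Control range and A-CRF 6 above it. Its difference was -0.39 ± 0.34 (SE, adjusted p = 0.72). The regulator Pparg had 5.89, 6.36 and 6.78 in A-CRF, against 6.30, 6.45 and 6.90 in Control, with the same A-CRF 2, 4 and 5 below the Control range, and a difference of -0.22 ± 0.15 (SE, adjusted p = 0.56).

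Gpd1, the cytosolic glycerol 3-phosphate dehydrogenase, had the largest difference of the 8 genes. Its values were 6.63, 7.90 and 9.95 (lowest, median and highest) in A-CRF, against 8.42, 9.33 and 9.72 in Control. Of the A-CRF arrays 6 lay below every Control array, A-CRF 6 (8.48) lay at the low end of the Control range, and A-CRF 1 (9.95) was the highest of all 14 arrays. A-CRF averaged 7.89 ± 1.03 (SD of 8 arrays) and Control 9.19 ± 0.47 (SD of 6 arrays), a difference of -1.30 ± 0.42 (SE) with a 95% interval of -2.20 to -0.39 and a limma adjusted p of 0.14. Without A-CRF 1 the difference was -1.59 and the adjusted p 0.014, and without the 3 arrays of high GAPDH difference, of which A-CRF 1 is 1, they were -1.41 and 0.029. Leaving out any 1 of the 13 other arrays gave an adjusted p of 0.13 to 0.26.

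The second Gpd1 probe set was dim, at 5.18 to 5.44 in A-CRF against 5.37 to 5.66 in Control. All 8 A-CRF arrays, A-CRF 1 included (5.33), lay below its Control median of 5.52. It fell by 0.19 ± 0.05 log2 units (SE, adjusted p = 0.049), a call that was lost in 12 of the 14 fits that left out 1 array, all but those without A-CRF 6 or Control 1 (highest adjusted p = 0.107). The 2 probe sets had the same sign and differed on A-CRF 1, where the brighter one was highest of all arrays. Why they differ there was not tested.

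Pck1 encodes the cytosolic phosphoenolpyruvate carboxykinase, which in fat supplies glycerol for triglyceride and in liver drives gluconeogenesis. Its values were 7.40, 8.88 and 9.61 (lowest, median and highest) in A-CRF, against 6.83, 7.16 and 9.89 in Control. The Control arrays fell into 2 levels, with Control 2, 3, 4 and 5 at 6.83 to 7.41 and Control 1 and 6 at 8.78 and 9.89. All 8 A-CRF arrays lay above the Control median, yet the groups overlapped fully, since Control 6 was the highest of all 14 arrays. The difference was 0.82 ± 0.54 (SE, adjusted p = 0.56, 95% interval -0.34 to 1.97), and it was 1.24 without Control 6 (adjusted p = 0.24). Pck1 and Cfd were the 2 genes with a positive difference.

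**Figure D2:**
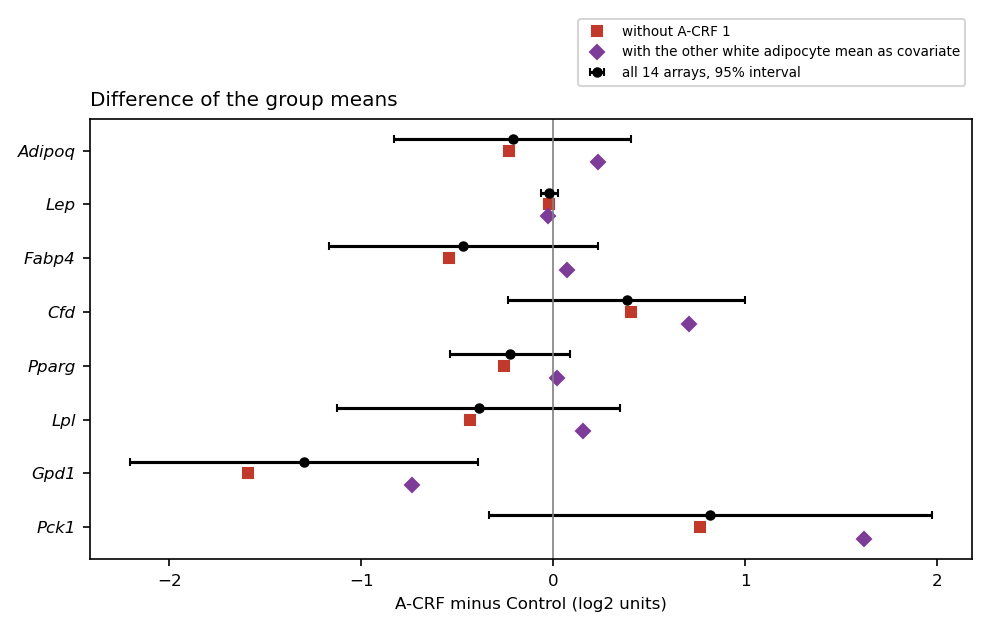
Difference of the group means, A-CRF minus Control, in log2 units (x axis) for the 8 genes, from all 14 arrays with its 95% interval (black circles), without A-CRF 1 (red squares) and with the mean of 17 other white adipocyte genes as a covariate (purple diamonds). The interval excludes 0 only for Gpd1, whose adjusted p was 0.14, and the covariate moves Adipoq, Fabp4, Pparg and Lpl to the positive side.

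The same arrays were low for nearly all of these genes. A-CRF 2, 4 and 5 were the 3 lowest of the 8 A-CRF arrays for 7 of the 8 genes, all but Lep. These 3 were the lowest for 3.14% of all named genes and for 4.01% of those with a mean above the bound. The pattern was noticed in the values and is given as a description, without a test. The 3 arrays are those below the widest gap, within A-CRF, in the mean of the other white adipocyte genes. The count for that list is therefore not independent of their choice. The pattern held for 10 of 17 other white adipocyte genes, for 1 of 13 brown adipocyte markers and for 0 of 11 macrophage, 0 of 8 smooth muscle, 0 of 6 adventitial fibroblast, 0 of 8 skeletal muscle and 0 of 5 lymphocyte markers. It also held for 2 of 4 Schwann cell, 2 of 8 endothelial and 1 of 5 mesothelium markers. The brown markers Ucp1 and Cox8b missed it because A-CRF 3 lay below A-CRF 5, yet both were below every Control array on A-CRF 2, 4 and 5. Not above the bound, where the order of arrays says little, were 7 of 13 brown, 5 of 8 skeletal muscle and 4 of 5 lymphocyte markers. The same was true of 5 of 5 mesothelium markers and of 3 of 17 other white adipocyte genes. Of the 8 genes, 6 were below every Control array on A-CRF 4 and 5 were on each of A-CRF 2 and A-CRF 5. Among the Control arrays, Control 6 was the highest for 6 of the 8 genes, all but Lep and Gpd1. It was the highest for 14.6% of all named genes and for 17.5% of those with a mean above the bound. The GAPDH difference was high on A-CRF 4 (1.63), the lowest array in the mean of the 8 genes, and on A-CRF 1 (1.90). On A-CRF 2 and A-CRF 5 it was 0.37 and 0.40. Its part in this order was not tested.

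The spread was wider in A-CRF for most of the genes. The ratio of the SD in A-CRF to that in Control was 2.76 for Adipoq, 2.31 for Lpl, 2.27 for Fabp4, 2.20 for Gpd1, 1.69 for Cfd and 1.40 for Pparg. It was 0.72 for Lep and for Pck1, against a median of 1.08 over all tested probe sets and 1.17 over those with a mean above the bound. The ratios were not tested.

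To set the genes against fat cell transcripts not among them, the mean of 17 measured genes of white adipocytes was taken for each array. That mean was 6.37 to 7.20 in A-CRF, against 6.88 to 7.38 in Control. A-CRF 2, 4 and 5, at 6.37 to 6.51, lay below its widest gap within A-CRF, and the 5 other A-CRF arrays lay at 6.86 to 7.20. This gap, seen in the values, is how the 3 arrays were set apart. Correlations with this mean were computed within each group, 16 in all, with exact permutation p-values adjusted over the 16, and 8 passed 0.05 by Pearson's r. In A-CRF (n = 8) they were those of Pparg (r = 0.98), Lpl (0.96), Pck1 (0.95), Fabp4 (0.94), Adipoq (0.91) and Gpd1 (0.83), and in Control (n = 6) those of Fabp4 (0.98) and Pparg (0.89). The share of all named genes that follow this mean was not computed. The count of 8 therefore has no background to be read against, and it does not show a trait particular to these genes.

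For Pparg in A-CRF the exact permutation p was 6.2e-04 for r (adjusted 0.0033) and 0.0046 for Spearman's rho of 0.90 (adjusted 0.018). For Fabp4 in A-CRF rho was 0.93 (exact permutation p = 0.0022, adjusted 0.018) and in Control 0.94 (exact p = 0.017, adjusted 0.038), where r had an exact p of 0.0069 (adjusted 0.016). By rho, 7 of the 16 relations passed, and Pparg in Control (rho = 0.83, exact permutation p = 0.058) did not. Without A-CRF 2 and 4, the arrays farthest from the median, r in A-CRF was 0.98 for Pparg, 0.92 for Lpl and Fabp4, 0.90 for Pck1, 0.79 for Adipoq and 0.68 for Gpd1. Over the 5 A-CRF arrays other than 2, 4 and 5, r was 0.91 for Pparg, 0.78 for Fabp4, 0.71 for Lpl, 0.57 for Pck1, 0.50 for Gpd1 and 0.47 for Adipoq, so the relations rest in part on the 3 low arrays, those of Adipoq, Gpd1 and Pck1 most. Without Control 2 and 6, r in Control was 0.95 for Fabp4 and 0.52 for Pparg (n = 4).

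Cfd and Lep passed in neither group. For Cfd, r was 0.64 in A-CRF (exact permutation p = 0.085, adjusted 0.12) and 0.63 in Control (exact p = 0.19, adjusted 0.24), and r in Control was -0.31 without Control 2 and 6. For Lep the values were 0.05 in A-CRF and -0.34 in Control (exact permutation p = 0.91 and 0.57).

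**Figure D3:**
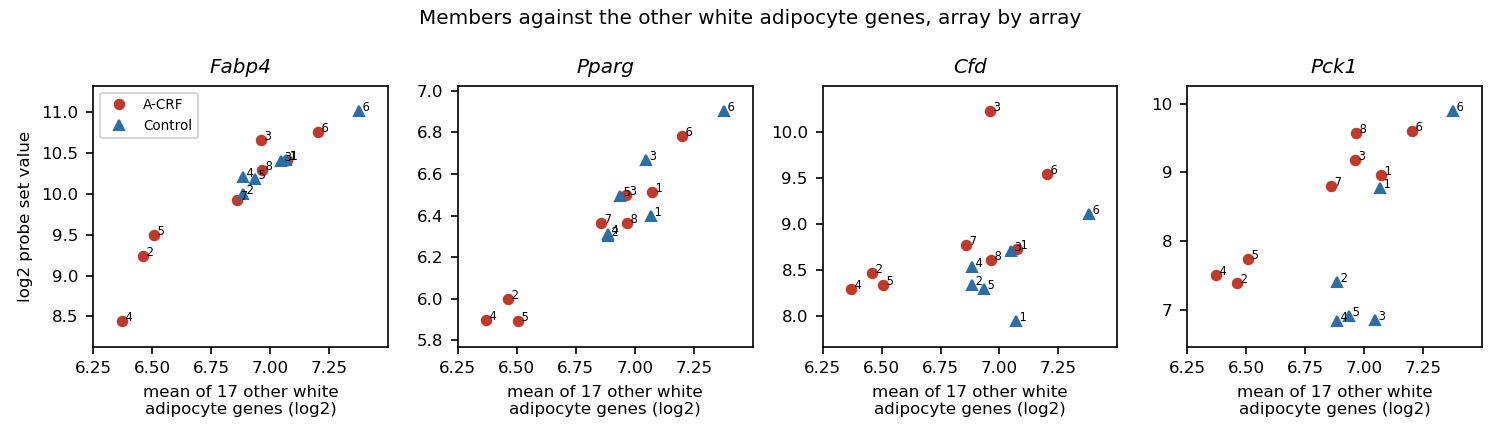
Log2 values of Fabp4, Pparg, Cfd and Pck1 (y axes) against the mean of 17 other white adipocyte genes (x axis, log2), with A-CRF arrays as red circles, Control arrays as blue triangles and the array number beside each. Fabp4 follows the mean in both groups. Pparg follows it in A-CRF, and in Control with r = 0.89, which was 0.52 without Control 2 and 6 (n = 4). A-CRF 3 stands high for Cfd, and Control 2, 3, 4 and 5 stand low for Pck1.

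With that mean as a covariate in the fit over all probe sets, the differences of Adipoq, Fabp4, Pparg and Lpl were 0.24, 0.07, 0.02 and 0.16 log2 units, on the other side of 0 from those without it, and none passed. Pck1 rose by 1.62 ± 0.32 (SE, adjusted p = 0.045) in this fit, in which 0.387% of all tested probe sets were called higher and 0.174% lower. Cfd had 0.71 ± 0.25 (SE, adjusted p = 0.26) and Gpd1 -0.73 ± 0.31 (SE, adjusted p = 0.38). The mean of 13 brown adipocyte markers as a covariate, a fit that called 0.802% of tested probe sets and none of the 8 genes, gave 1.40 ± 0.40 for Pck1 (SE, adjusted p = 0.14) and -0.78 ± 0.26 for Gpd1 (SE, adjusted p = 0.20). The covariate fits ask for differences at equal levels of the covariate, and A-CRF 2, 4, 5 and 7 lay below the whole Control range of the white adipocyte mean, A-CRF 7 (6.86, against 6.88 on Control 2) only just.

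Gpd1 also went with the mean of the brown adipocyte markers in A-CRF, with r = 0.95 (n = 8, exact permutation p = 5.0e-05, adjusted over 16 relations 7.9e-04) and rho = 0.98 (exact p = 4.0e-04, adjusted 0.0063). Its r with the white adipocyte mean was 0.83, and the difference between these correlations was not tested. Without A-CRF 1 and 6, r with the brown markers was 0.81, and over the 5 arrays other than A-CRF 2, 4 and 5 it was 0.92. Of the 16 relations with the brown marker mean this 1 passed, by r and by rho, and the other 15 passed by neither. For the brown marker mean, too, the share of all named genes was not computed. In Control the r of Gpd1 with it was 0.48 (n = 6, exact permutation p = 0.33). The pooled SD within groups was 1.35 for Ucp1, 1.01 for Cox8b and 0.58 for Cidea, against a median of 0.11 over the 13 brown markers. The brown marker mean therefore follows these genes most.

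Among the brown adipocyte markers 6 of 13 had a mean above the bound and 0 passed between the groups. Of the differences 8 were negative and 5 positive, with a median of -0.03. Ucp1 and Cox8b had the largest, and the largest positive one was that of Fabp3 (0.29, limma adjusted p = 0.42). Ucp1, the heat-producing uncoupling protein, had 5.31, 6.80 and 9.75 (lowest, median and highest) in A-CRF, against 6.88, 7.76 and 9.07 in Control. A-CRF 2, 3, 4 and 5 lay below every Control array, and A-CRF 1 above every Control array, with a difference of -1.04 ± 0.68 (SE, adjusted p = 0.56). Cox8b, a cytochrome c oxidase subunit of brown fat and muscle, ranged from 5.33 to 8.36 in A-CRF, against 6.28 to 8.63 in Control, with A-CRF 1 again the highest of its group. A-CRF 3 had 5.51 for Ucp1, below every Control array, and the highest Adipoq (9.02) and Cfd (10.22) of all 14 arrays. Dgat2 (6.77) and Slc2a4 (6.12), from the list of white adipocyte genes, were also below every Control array on A-CRF 3. These values were picked after they were seen.

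Genes with which the 8 work were read from lists. Among 17 other white adipocyte genes 0 passed, 14 differences were negative and 3 positive, and the median was -0.12 log2 units. Dgat2, which adds the last fatty acid to triglyceride, had 6.25, 7.26 and 8.72 (lowest, median and highest) in A-CRF, against 8.16, 8.62 and 8.74 in Control. As for Gpd1, 6 A-CRF arrays lay below every Control array and A-CRF 1 was the highest of its group, and the difference was -1.11 ± 0.35 (SE, adjusted p = 0.12; 0.034 without A-CRF 1). The insulin-responsive glucose transporter Slc2a4 had a difference of -0.62 ± 0.18 (SE, adjusted p = 0.094; 0.030 without A-CRF 1).

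In the list of glycerol phosphate and triglyceride assembly 0 of 9 genes passed and all 9 differences were negative, with a median of -0.18. Of these 9 genes 2 were not above the bound, and over all 31042 tested probe sets 16348 differences were negative. Dgat2 is in this list too. Agpat2, which makes phosphatidic acid, had 6.12, 6.73 and 7.61 in A-CRF, against 7.10, 7.73 and 8.10 in Control, and a difference of -0.93 ± 0.23 (SE, adjusted p = 0.055). It passed in 3 of the 14 fits that left out 1 array, those without A-CRF 1 (adjusted p = 0.015), A-CRF 6 (0.047) or Control 2 (0.049).

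Of 11 genes that handle lipoprotein lipase 1 fell, 0 rose and 10 did not pass, with a median of -0.0045, and 6 were not above the bound. Angptl8, a liver and fat hormone that, with its partners, restrains lipoprotein lipase, was 5.08, 5.18 and 5.66 (lowest, median and highest) in A-CRF, against 5.65, 5.71 and 6.19 in Control. Of the A-CRF arrays 7 lay below every Control array, and A-CRF 1 (5.66) was level with the lowest of them. Angptl8 fell by 0.59 ± 0.10 (SE, adjusted p = 0.012), and it passed in all 14 fits that left out 1 array (highest adjusted p = 0.029), while its A-CRF values were close to the lowest value of the table. With the white adipocyte mean as a covariate its adjusted p was 0.051, and by an exact rank-sum test adjusted over all probe sets it was 0.064.

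Angptl4, an inhibitor of lipoprotein lipase that fasting induces in fat, had 6.22, 6.51 and 6.98 in A-CRF, against 5.52, 5.59 and 6.74 in Control. All 8 A-CRF arrays lay above 5 of the 6 Control arrays, the exception being Control 6 (6.74). The difference was 0.68 ± 0.18 (SE, adjusted p = 0.071), and without Control 6 it was 0.87 (adjusted p = 0.0097). Control 6 was thus the highest Control array for both Pck1 and Angptl4.

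Among 12 other adipokine genes 0 passed, with a median of 0.0097, and 5 were not above the bound. Next to Angptl4, which is also in this list, the largest difference was that of Nampt, which encodes visfatin, an enzyme of NAD synthesis, with 6.58 to 7.23 in A-CRF against 7.19 to 7.74 in Control (-0.42 ± 0.12, SE, adjusted p = 0.078). Of the 5 adipokine receptor genes 0 passed, with a median of -0.02. Cdh13, which encodes the adiponectin-binding T-cadherin, had 7.20 to 8.47 in A-CRF against 7.05 to 7.65 in Control (0.34 ± 0.18, SE, adjusted p = 0.45), and Cap1 had a difference of -0.11 ± 0.14 (SE, adjusted p = 0.84).

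Of 17 partners of Pparg and regulators of fat cell formation 1 fell, 0 rose and 16 did not pass, with a median of -0.05, and 6 were not above the bound. The zinc finger regulator Zfp467, which favours fat cell formation in mouse marrow stroma, fell by 0.18 ± 0.04 (SE, adjusted p = 0.028), with 5.61 to 5.79 in A-CRF against 5.78 to 6.05 in Control. All its A-CRF values lay under the bound of 5.82. Its call was lost without A-CRF 5, Control 1, Control 5 or Control 6 (highest adjusted p = 0.070). It was also lost without the 3 arrays of high GAPDH difference (adjusted p = 0.077), without A-CRF 1 and Control 6 together (0.056), with the white adipocyte mean (0.075) or the brown marker mean (0.076) as a covariate, and by the exact rank-sum test (0.064).

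**Figure D4:**
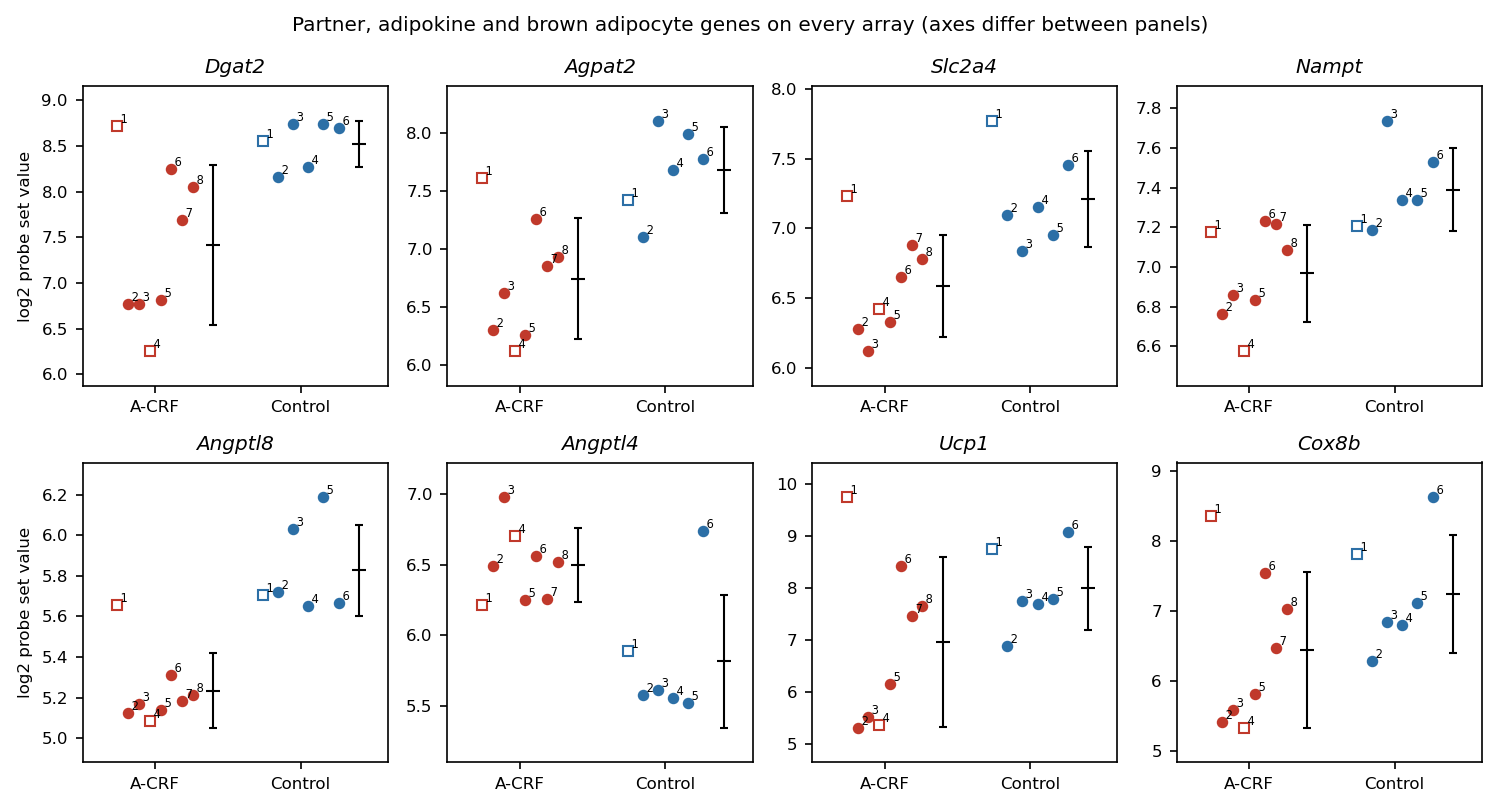
Log2 probe set values (y axis, a separate scale in each panel) of 8 genes from the lists, with A-CRF in red, Control in blue, array numbers beside the points, open squares for high GAPDH difference, and mean ± SD at the right of each group. A-CRF 1 is the highest A-CRF array for Dgat2, Agpat2, Slc2a4, Angptl8, Ucp1 and Cox8b, and Control 6 stands above the other Control arrays for Angptl4.

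The genes most like the 8 in their array-to-array pattern were sought over all named genes, by the correlation of deviations from the group means with the mean standardised deviation of the 8, over 14 arrays. The closest were Plin1 (r = 0.96), the coat protein of the fat droplet, Mgst1 (0.96), a membrane glutathione transferase, the growth hormone receptor Ghr (0.93) and Arxes1 (0.92), a Pparg target of mouse fat. Next came Acsl1 (0.92), which activates fatty acids, Cidec (0.92), a droplet fusion protein, Aqp7 (0.92), the glycerol channel, and the lipase Ces1d (0.92). Pde3b (0.91), Rbp4 (0.91), Rbp7 (0.91) and Palmd (0.91) completed the 12. None of these 12 passed between A-CRF and Control, with adjusted p-values of 0.21 for Aqp7, 0.45 for Cidec and Ces1d and 0.68 or more for the others. Plin1, Cidec, Aqp7 and Pde3b were also on the list of white adipocyte genes and Rbp4 on that of adipokines.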

How the data were processed

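In the deposited table each probe set has a single value per array, taken here to be on a log2 scale because the values run from 4.82 to 12.64. Per the submitters' processing notes the authors made these log2 summaries with PLIER, version not given in the sources used here; background correction, normalization and offset are unknown. The 57 control probe sets were set aside and 31042 tested with limma 3.58.1 in R 4.3.3 (lmFit and eBayes, 14 arrays, group as the only factor), with Benjamini-Hochberg adjustment over all of them and a threshold of 0.05. The code was tested on simulated data. Array number limits the precision. Correlations used exact permutation over pairings within a group. Beside the 8 genes, the text names from each partner list up to 4 genes past the threshold, largest change first, or the 2 with the largest change where none passed, and the 12 named genes most alike in pattern, passing over LOC and RGD symbols. Lists of other cell types are given as counts. Genes and lists were chosen with earlier results of these data known. Alternatives were another normalization, filter, variance model and test, covariates and arrays left out. Promoter windows came from RefSeq (GRCr8). No samples or sample columns were left unused.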

Additional observations from a re-analysis of the deposited data

Results flagged for a closer look

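In 38 groups of arrays (19 genes, each in A-CRF and in Control) 3 held a single array farther from the others than Dixon's 95% limit allows, and chance gives about 5% of groups. Angptl4 was 6.74 on Control 6, against 5.52 to 5.89 on the 5 other Control arrays. Cap1 was 9.47 on Control 1, against 8.56 to 8.77. Control 1 is among the 3 arrays of high GAPDH difference, and the next highest Cap1 values were on the others, A-CRF 4 (9.23) and A-CRF 1 (8.94). A link between them was not tested. Angptl8 was 5.66 on A-CRF 1, against 5.08 to 5.31 on the 7 other A-CRF arrays. No such array was found for the 8 genes the report is about.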

How the results depend on the processing

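The number of called probe sets, 636 with all arrays, was 1457 with array weights, 1041 with the GAPDH difference as a covariate, 174 with the white adipocyte mean and 249 with the brown marker mean as a covariate, and 307 to 979 when 1 array was left out. Without the 3 arrays of high GAPDH difference it was 898. Of the 8 genes, 1 was called higher with the white adipocyte covariate (Pck1), and 1 was called lower (Gpd1) without the 3 arrays of high GAPDH difference. Gpd1 was also called lower without A-CRF 1 and Control 6 together, a setting chosen after seeing the data. The number of all probe sets called in that setting is not given here. Leaving out 1 array gave 0 to 1 called lower and 0 called higher. The sign turned for Adipoq (0.24), Fabp4 (0.073), Pparg (0.019) and Lpl (0.16) with the white adipocyte covariate and for Cap1 without Control 1 (0.017, in a range of -0.18 to 0.017 when 1 array was left out); the cause was not tested. With quantile normalization 7 correlations with the white adipocyte mean passed, against 8, and without the 2 farthest arrays 14 of 16 relations had r above 0, against 15. Lep could not be fitted with dim probe sets left out. No paired analysis was possible because the labels give the groups no shared replicate numbers. The array numbers used here run from 1 within each group and pair no samples. Signal limits Lep and the second Gpd1 probe set, whose values all lie within 1 log2 unit of the lowest in the table. The same holds for Angptl8 and Zfp467 in A-CRF.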
